A study of Mus musculus with 17 samples.

Results

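Acute phase and complement genes were followed in mouse macrophages that had or lacked SOCS3 and were exposed to IL-6. The set was defined by gene symbol and holds 9 genes: Saa3, Lcn2, Hp, C1qa, C1qb, C3, C4b, Cfb and Serping1. Each was read from the probe sets (groups of short probes that report 1 transcript) to which the platform's annotation gave that symbol alone. Of the 9 genes, 7 had such probe sets, 10 probe sets in all, among 10855 probe sets with 1 symbol for 8252 genes. Saa3, Hp, C1qa and Serping1 had 1 each, and Lcn2, C1qb and Cfb had 2 each. C3 had no probe set under its name in the annotation used here. C4b was named on 2 probe sets that it shares with C4a, so it is not analysed here.

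The macrophages came from irradiated mice whose blood system had been rebuilt with fetal liver cells of SOCS3-/- embryos (KO) or of SOCS3+/+ embryos (WT), and were differentiated from donor-derived marrow cells. Total RNA was measured on 17 arrays in 6 groups: KO cells without IL-6, after 100 min and after 400 min of IL-6 at 10 ng/ml (3 arrays each), and WT cells without IL-6 (2 arrays), after 100 min and after 400 min of the same dose (3 arrays each). Strain, sex and age are not given in the labels, nor is the way in which donor cells were told from host cells. The labels number the replicates 1 to 3 without saying whether they were separate cultures or mice, so the p-values here rest on the spread among these arrays alone, and that spread may be technical.

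Acute phase proteins are plasma and tissue proteins whose synthesis changes during inflammation. The liver is their main source, where IL-6 acts through the receptor subunit gp130, STAT3 and C/EBP factors, and SOCS3 restrains gp130 signalling. Macrophages make some of them too, among them the serum amyloid A form Saa3, and they are a main source of C1q, the recognition protein of the classical complement pathway. In whole-culture RNA a lower level in every cell and fewer cells of 1 type cannot be told apart.

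Levels below are quantile-normalized linear intensities. Tests were run on their log2 values after a floor at 22.0, with limma over all 17 arrays and 9871 probe sets that lay above the 40th percentile of their array on at least 2 arrays. A probe set was called at a Benjamini-Hochberg adjusted p under 0.05. All 10 member probe sets passed that filter. Lcn2 160564_at did so through 3 of 17 arrays, and both Cfb probe sets through 7 arrays. Levels of different probe sets are not compared with each other.

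Some arrays stood apart. Socs3, the deleted gene, read 903 (normalized intensity, 92232_at) on the array labelled KO 400 min replicate 3, against 16.5 to 179 on the other 8 KO arrays. Its level in WT cells was 115 and 54.9 without IL-6, 2552, 1809 and 432 after 100 min, and 2400, 2036 and 2117 after 400 min. The array labelled KO 400 min replicate 3 was therefore above 1 stimulated WT array, and differences at 400 min in KO cells are given with and without it. Where it is left out and the fit has no term for replicate 3, the group compared keeps its own replicate 3 array. Any shift of replicate 3 then enters the difference. On the first principal component the replicate 3 arrays lay at 45.2, 30.5 and 0.888 for KO cells at 0, 100 and 400 min and at 58.1 and 26.6 for WT cells at 100 and 400 min, while the highest of the other arrays lay at 2.27. The unstimulated WT group has no replicate 3 array. Of 10 macrophage markers, 10 were tested and none lay at the floor on any array, with a summed level of 82128 to 112193 per array.

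Saa3 was the member with the largest difference. It was 7.12-fold higher in KO cells after 400 min of IL-6 than in unstimulated KO cells, and 5.64-fold higher in KO than in WT cells at 400 min. Over all 17 arrays, both differences passed the test when replicate 3 had a term of its own and neither passed when the replicate numbers were left out of the fit. On KO arrays without IL-6, Saa3 (102712_at) read 149, 113 and 957 in replicates 1, 2 and 3. After 100 min the KO arrays read 187, 178 and 1704. After 400 min they read 1105, 868 and 6047, the last on the array labelled KO 400 min replicate 3. Within each replicate number the levels were ordered 0, 100 and 400 min from low to high, and the replicate 3 array was the highest at each time. How many of all probe sets share this order was not counted. On WT arrays Saa3 read 187 and 172 without IL-6 in replicates 1 and 2. After 100 min the WT arrays read 88.7, 278 and 546, and after 400 min 225, 165 and 869. Stimulated WT replicates 1 and 2 overlapped the unstimulated WT arrays, and again the replicate 3 array was the highest.

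**Figure D1:**
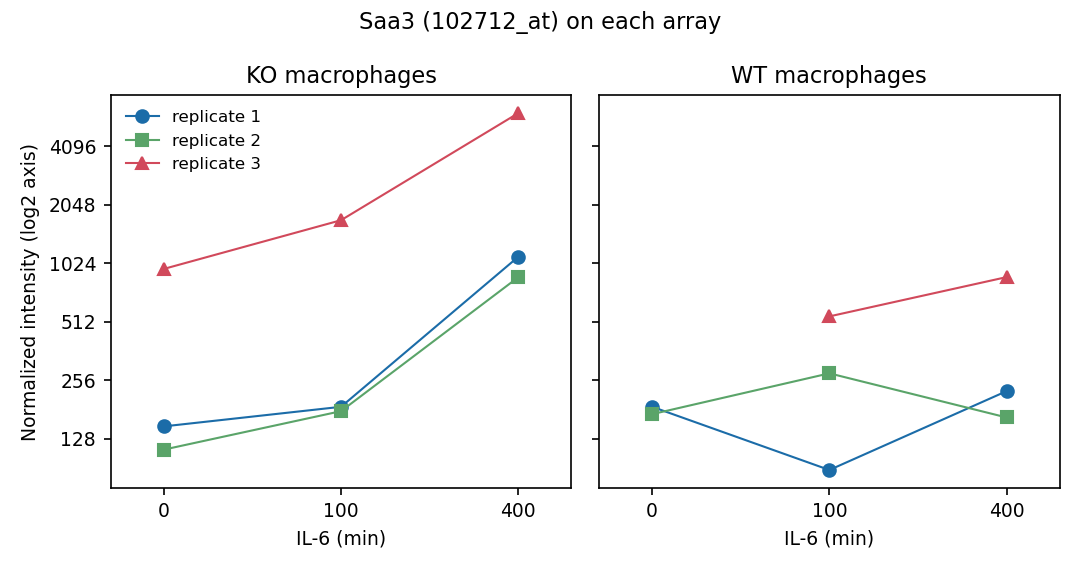
Normalized Saa3 intensity (log2 axis) against time of IL-6 (0, 100 and 400 min) on each of the 17 arrays, KO on the left and WT on the right; colours and markers give the replicate number, and lines join arrays of the same number as a guide only. In KO cells all 3 numbers are highest at 400 min, at 1105, 868 and 6047, and replicate 3 lies above the other two at every time.

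Without a term for replicate 3, the difference between KO cells at 400 min and unstimulated KO cells was 2.83 on the log2 scale (SE 1.10), with an adjusted p of 0.289. KO against WT cells at 400 min differed by 2.50 (SE 1.10), with an adjusted p of 0.536. With the term, the same differences had an SE of 0.39. The adjusted p was 0.00205 for KO cells at 400 min against unstimulated KO cells, where 3.36% of all probe sets tested were called. It was 0.0102 for KO against WT cells at 400 min, where 0.861% were called. Saa3 was the only one of the 10 member probe sets called in either comparison. Between KO cells at 400 and 100 min it differed by 2.23 with the term and did not pass (adjusted p = 0.0552, 0.0912% called), nor at 2.19 without the array labelled KO 400 min replicate 3 (adjusted p = 0.107). Without the array labelled KO 400 min replicate 3 and with no term, KO cells at 400 min differed from unstimulated KO cells by 1.96 (adjusted p = 0.571). KO against WT cells at 400 min then differed by 1.62 (adjusted p = 0.746). This fit keeps the replicate 3 arrays of unstimulated KO cells and of WT cells at 400 min, so the shift of replicate 3 enters both values. Without the array labelled KO 400 min replicate 3, and still with the term, the same 2 differences were 2.80 (adjusted p = 0.00936, 2.59% called) and 2.46 (adjusted p = 0.0296, 1.27% called). On replicates 1 and 2 alone, KO cells at 400 min against unstimulated KO cells differed by 2.92 (SE 0.48, adjusted p = 0.0208, 2.8% called), and KO against WT cells at 400 min by 2.34 (SE 0.48, adjusted p = 0.0723, 1.24% called).

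The ratio of Saa3 in KO cells at 400 min to that in unstimulated KO cells was 7.44 in replicate 1, 7.69 in replicate 2 and 6.32 in replicate 3. The ratio of KO to WT at 400 min was 4.90, 5.26 and 6.96. These ratios differ by less than 1.5 times between replicate numbers, whereas the levels behind them differ by several times. At 100 min the ratio of KO to unstimulated KO was 1.26, 1.58 and 1.78, and that of KO to WT was 2.11, 0.639 and 3.12, so the genotypes were not ordered the same way in every number. Without IL-6 the ratio of KO to WT was 0.793 in replicate 1 and 0.657 in replicate 2. In WT cells the ratio of 400 min to unstimulated was 1.20 and 0.962. With the replicate 3 term, WT cells at 400 min against unstimulated WT cells gave a log2 difference of -0.02 (95% interval -0.99 to 0.95, adjusted p = 0.998, 0.0304% called). The KO response at 400 min exceeded the WT response by 2.85 (SE 0.59) with the term, with an adjusted p of 0.189 and 0.0507% called, so this difference did not pass. The value was 2.81 (adjusted p = 0.341) without the array labelled KO 400 min replicate 3. The unstimulated WT group has no replicate 3 array. The WT difference and the response difference with the term therefore rest on 1 shift taken as common to all groups. By group, the ratio of replicate 3 to replicates 1 and 2 ran from 6.18 to 9.34 in KO cells, and was 3.47 and 4.51 in WT cells.

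The shift of the replicate 3 arrays was measured by itself. Within groups, replicate 3 differed from replicates 1 and 2 by 2.54 on the log2 scale for Saa3 (SE 0.26, adjusted p = 0.000349), or 5.82-fold higher. By group the ratio of replicate 3 to the geometric mean of replicates 1 and 2 was 7.39, 9.34 and 6.18 in KO cells at 0, 100 and 400 min, and 3.47 and 4.51 in WT cells at 100 and 400 min. In this comparison 7.26% of all probe sets were called, and 4 of the 10 member probe sets: Saa3 higher, and C1qb 96020_at, C1qa and C1qb 162276_i_at lower. Saa3 was called in all 17 fits that left out 1 array, at 2.37 to 2.73. The check of replicate 3 was set for Saa3 by name, with earlier results of these data known. Its p-value and these fits therefore give the size of the shift and are not independent support for it. Among markers of other cells, the neutrophil and myeloid precursor list had 2 of 9 tested genes lower on replicate 3, S100a9 and Prtn3, with a summed level of 1428 to 2065 on replicate 3 arrays and 2144 to 3105 on the others. The B cell list had 1 of 6 lower, Ighm, with sums of 1478 to 2268 on replicate 3 arrays and 1645 to 6729 on the others. Ighm weighs most in that sum, with a median of 1976 over the 17 arrays, against 211 or less for each other gene of the list. The macrophage list had 2 of 10 lower, Mrc1 and Csf1r, with sums of 82128 to 92708 on replicate 3 arrays and 85526 to 112193 on the others. The hepatocyte list had 1 of 7 lower, Alb, with sums of 661 to 1059 on replicate 3 arrays and 849 to 1369 on the others. Of the neutrophil and myeloid precursor list, Prtn3 lay at the floor on 1 array, Ltf on 4, Ctsg on 6 and Mmp9 on 2, and of the B cell list Igk on 1. The adipocyte, fibroblast, T and NK cell, erythroid and dendritic cell lists had 0 genes called on replicate 3. Their part in the Saa3 levels was not tested.

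**Figure D2:**
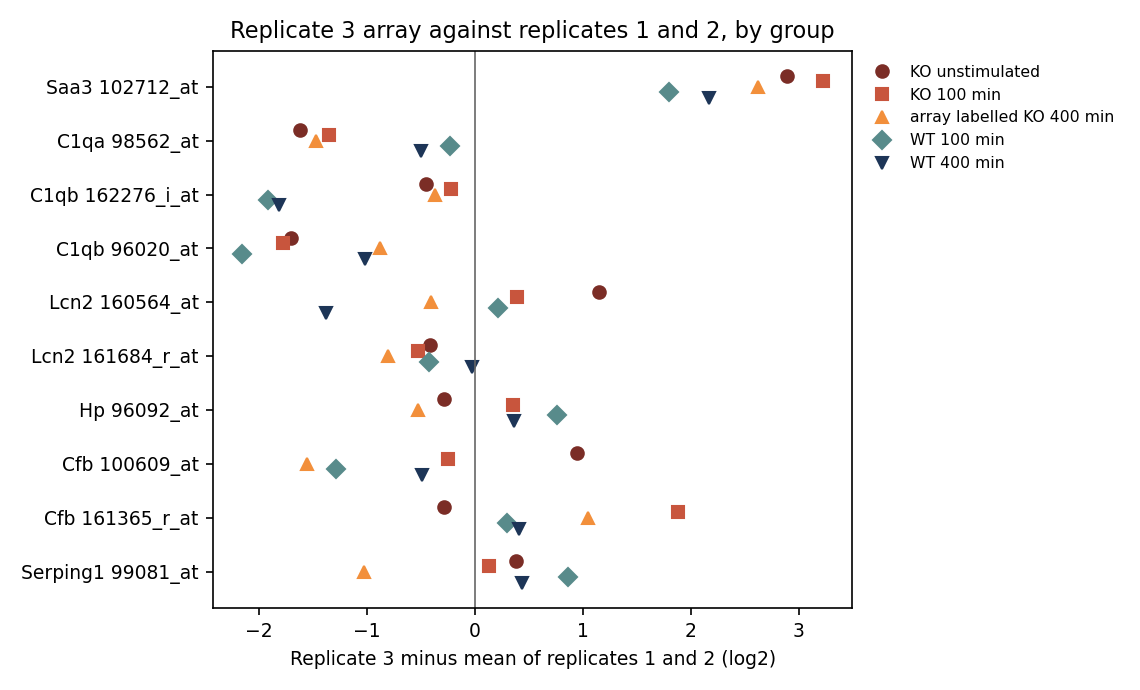
Log2 difference of the replicate 3 array from the mean of replicates 1 and 2 within each of the 5 groups that have 3 arrays, for the 10 member probe sets. Saa3 lies to the right of 0 in all 5 groups, C1qa, both C1qb probe sets and Lcn2 161684_r_at lie to the left in all 5, and the other members lie on both sides of 0.

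The same marker lists were read for KO cells at 400 min against unstimulated KO cells. Lpl, on the adipocyte list and also made by macrophages, fell by 1.39 (SE 0.25, adjusted p = 0.0120), 1 of 4 tested genes of that list, and by 1.30 without the array labelled KO 400 min replicate 3 (adjusted p = 0.0384). The summed adipocyte level was 5483 to 6392 in KO cells at 400 min, against 12473 to 14543 in unstimulated KO cells, and 5379 to 9786 in WT cells at 400 min. This sum is mostly Lpl, so it repeats the fall of Lpl and does not describe the list. The median over the 17 arrays was 11502 for Lpl, 781 for Lep, 179 for Fabp4, 68.9 for Adipoq and 29.1 for Retn. Adipoq lay at the floor on 1 of 17 arrays. Of the 10 macrophage markers, Fcgr1 rose by 1.96 (SE 0.37, adjusted p = 0.0168) and by 1.97 without that array (adjusted p = 0.0411), and the list's sum was 85526 to 87628 in KO cells at 400 min, against 88815 to 102906 in unstimulated KO cells. The other lists had 0 genes called in this comparison, and 2 of their sums did not overlap: the dendritic cell sum was 1148 to 1463 in KO cells at 400 min, against 712 to 938 in unstimulated KO cells, and the fibroblast and stroma sum was 2099 to 2271, against 2353 to 2647. Between KO and WT cells at 400 min no marker gene was called. There the B cell sum was 1523 to 1893 in KO cells, against 2268 to 4063 in WT cells, and the erythroid sum was 904 to 1492, against 455 to 813. The sums of the other lists overlapped. Each of these ranges rests on 3 arrays and is not a test. The share of all probe sets whose ranges do not overlap was not counted, so sums that stand apart are descriptions only. Of the B cell list, Ighm had by far the highest median, at 1976. The part of the listed cell types in the Saa3 differences was not tested.

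Promoters are shown for Saa3, Lcn2 and C1qb: Saa3 as the member that differed with IL-6, Lcn2 as an acute phase member that did not pass, and C1qb as the complement member with the largest shift on replicate 3. They are the 250 bases before the start in RefSeq on GRCm38.p6, all on the minus strand and written 5′ to 3′, from chr7:46715677-46715926 for Saa3, chr2:32387740-32387989 for Lcn2 and chr4:136886201-136886450 for C1qb. Of the 9 genes, 4 had an entry in that table. Capitals mark matches to a C/EBP pattern, TTGCNNAA on either strand, where N is any base.
Saa3: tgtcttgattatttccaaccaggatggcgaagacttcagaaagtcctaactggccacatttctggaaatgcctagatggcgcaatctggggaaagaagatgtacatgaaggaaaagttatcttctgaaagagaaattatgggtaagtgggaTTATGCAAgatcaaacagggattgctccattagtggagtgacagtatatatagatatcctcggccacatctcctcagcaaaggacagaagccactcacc
Lcn2: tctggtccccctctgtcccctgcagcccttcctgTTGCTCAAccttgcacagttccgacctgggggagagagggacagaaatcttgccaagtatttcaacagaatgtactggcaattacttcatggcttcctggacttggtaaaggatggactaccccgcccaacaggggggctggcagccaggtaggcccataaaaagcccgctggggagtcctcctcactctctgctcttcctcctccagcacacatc
C1qb: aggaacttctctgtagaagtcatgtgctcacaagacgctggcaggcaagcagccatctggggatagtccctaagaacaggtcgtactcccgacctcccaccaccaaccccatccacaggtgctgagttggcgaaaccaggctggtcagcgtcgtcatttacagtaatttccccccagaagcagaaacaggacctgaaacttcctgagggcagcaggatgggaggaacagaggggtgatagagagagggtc
The Saa3 window held 1 match, 99 bases before the start, the Lcn2 window 1 match, 216 bases before it, and the C1qb window 0. Of 32851 promoter windows of this length in the table, 9.56% held a match. No match to a STAT pattern TTCNNNGAA (7.02% of all windows), to TATAAA (12.4%) or to the NF-kappaB motif (7.25%) was found on either strand of the 3 windows. A match is a description of the letters and not of binding.

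Lcn2 encodes lipocalin 2, which binds bacterial siderophores and is an acute phase protein also made by macrophages and neutrophils. Its probe set 161684_r_at read 199, 349 and 198 in KO cells without IL-6, 328, 328 and 228 after 100 min, and 311, 375 and 195 after 400 min. In WT cells it read 309 and 458 without IL-6, 331, 226 and 203 after 100 min, and 235, 176 and 199 after 400 min. The 2 unstimulated WT arrays were above all 3 WT arrays at 400 min, and the KO groups overlapped. WT cells at 400 min differed from unstimulated WT cells by -0.90 (SE 0.36, adjusted p = 0.727). The dimmer probe set 160564_at read 112, 32.8 and 134 in unstimulated KO cells, 30.6, 73.9 and 62.4 after 100 min, and 121, 130.0 and 94.6 after 400 min, against 86.8 and 225 in unstimulated WT cells, 124, 80.5 and 116 after 100 min, and 58.3, 66.7 and 24.0 after 400 min. At 400 min all KO arrays were above all WT arrays, and the difference was 1.33 (SE 0.56, adjusted p = 0.507), or 1.47 without the array labelled KO 400 min replicate 3 (adjusted p = 0.514). On both probe sets KO was above WT on average at 400 min and below it without IL-6, and none of these differences passed. How many of all probe sets have groups that stand apart like this was not counted, so the Lcn2 separations are descriptions only.

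Hp encodes haptoglobin, which binds free haemoglobin. It read 259, 311 and 233 in KO cells without IL-6, 269.7, 264.5 and 340.3 after 100 min, and 445, 466 and 317 after 400 min. In WT cells it read 354 and 314 without IL-6, 236, 194 and 363 after 100 min, and 275, 229 and 324 after 400 min. Each KO array at 400 min was above each unstimulated KO array, while the KO and WT arrays at 400 min overlapped through replicate 3. The share of all probe sets that separate in this way was not counted, so the separation is a description only. KO cells at 400 min differed from unstimulated KO cells by 0.60 (SE 0.26, 95% interval 0.03 to 1.17), with an adjusted p of 0.371. KO against WT cells at 400 min differed by 0.56 (SE 0.26, adjusted p = 0.574). Without the array labelled KO 400 min replicate 3 these differences were 0.78 (adjusted p = 0.261) and 0.74 (adjusted p = 0.412).

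C1qa and C1qb encode 2 of the 3 chains of C1q, and C1qc, which is not a member, the third. In the RefSeq table C1qb, C1qc and C1qa stand next to each other on chromosome 4. C1qa (98562_at) read 4889, 5799.8 and 1725 in KO cells without IL-6, 2824, 4089 and 1327 after 100 min, and 5859.9, 5949.5 and 2122 after 400 min. In WT cells it read 5511 and 6712 without IL-6, 3502, 4577 and 3404 after 100 min, and 8423, 10269 and 6567 after 400 min. Within each genotype and replicate number C1qa was lowest at 100 min and highest at 400 min of the times measured, which were only 100 and 400 min for WT replicate 3. The share of all probe sets with this order was not counted, so it is a description only. WT cells at 400 min differed from WT cells at 100 min by 1.13 (SE 0.52, adjusted p = 0.793), and KO from WT cells at 400 min by -0.98 (SE 0.52, adjusted p = 0.627). With the replicate 3 term the same differences had adjusted p = 0.327 (0.0709% called) and 0.220, so none passed. Without the array labelled KO 400 min replicate 3, and with no term, KO against WT cells at 400 min differed by -0.49 (adjusted p = 0.858). That fit keeps the WT replicate 3 array at 400 min, so the shift of replicate 3 enters this value. Within replicates 1 and 2 the difference was -0.52 and -0.79.

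C1qb (96020_at) read 15629, 15980.2 and 4841 in KO cells without IL-6, 17309, 16787 and 4966 after 100 min, and 21204, 22568 and 11875 after 400 min. In WT cells it read 23898 and 23002 without IL-6, 24386, 23666 and 5393 after 100 min, and 29739.9, 28857 and 14477 after 400 min. The replicate 3 array was the lowest of its group in all 5 groups. KO cells at 400 min differed from unstimulated KO cells by 0.74 (SE 0.66, adjusted p = 0.747), and with the replicate 3 term by the same amount (SE 0.25, adjusted p = 0.155). With no term and without the array labelled KO 400 min replicate 3, the difference was 1.04 (adjusted p = 0.675). That fit keeps the replicate 3 array of unstimulated KO cells, at 4841, so the shift of replicate 3 enters this value. Within replicates 1 and 2 the difference was 0.44 and 0.50. The second C1qb probe set, 162276_i_at, read 83.4 to 391 over the 17 arrays and did not follow the first: its lowest values, 83.4 and 88.7, were the WT replicate 3 arrays, and its KO replicate 3 arrays read 217, 187 and 232.

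Between arrays of the same time and replicate number, KO was below WT in 8 of 8 pairs for C1qa (ratio 0.323 to 0.893), for C1qb 96020_at (0.654 to 0.921) and for C1qc (0.586 to 0.846), against 3 of 8 pairs for C1qb 162276_i_at. Of all probe sets tested, 1.93% were lower in KO in all 8 pairs, and the limma test called none of these genes in any comparison of KO with WT.

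**Figure D3:**
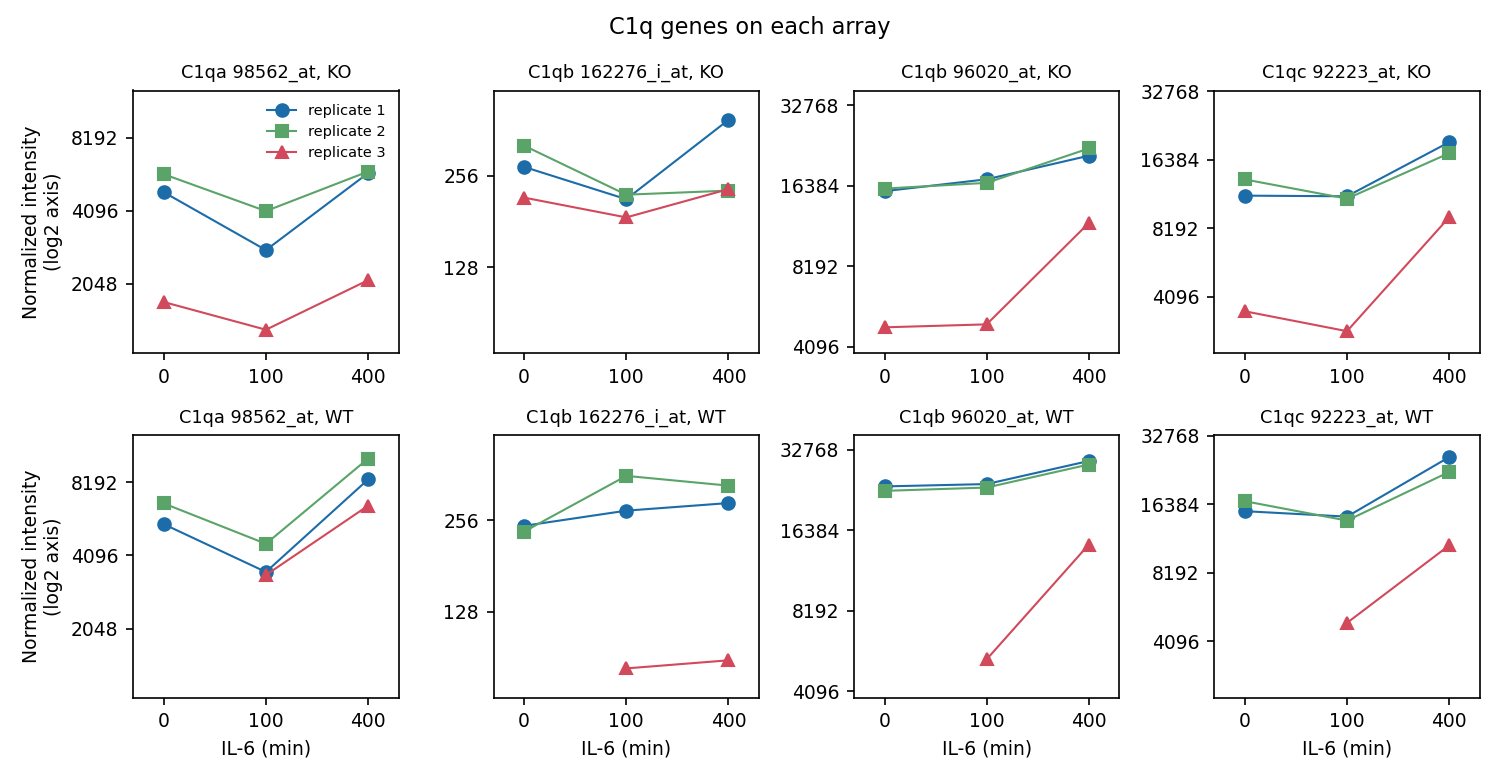
Normalized intensity (log2 axis) of C1qa, C1qb (both probe sets) and C1qc against time of IL-6 on each array, KO in the upper row and WT in the lower; lines join arrays of the same replicate number as a guide only. C1qa, C1qb 96020_at and C1qc are lower on replicate 3 in every group, and the ratio of KO to WT for C1qb 96020_at stays between 0.654 and 0.921 within replicate numbers.

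On the replicate 3 arrays C1qb 96020_at was lower by -1.51 on the log2 scale (SE 0.17, adjusted p = 0.000567), C1qa by -1.04 (SE 0.21, adjusted p = 0.0130) and C1qb 162276_i_at by -0.96 (SE 0.25, adjusted p = 0.0419). C1qc differed by -1.50 (SE 0.14, adjusted p = 0.000245). C1qb 96020_at and C1qa were called in all 17 fits that left out 1 array, at -1.66 to -1.35 and at -1.24 to -0.89, and C1qb 162276_i_at in 4 of the 17. The ranges of the macrophage, neutrophil and B cell sums on these arrays are given with Saa3 above, and their part in the C1q levels was not tested.

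Cfb encodes factor B of the alternative complement pathway. Its probe set 100609_at read 36.2 to 203 over the 17 arrays, with group means of 140.5, 119 and 116 in KO cells at 0, 100 and 400 min and 126, 95.6 and 59.3 in WT cells at 0, 100 and 400 min (SD 20.6 to 67.5, n = 2 or 3). KO was above WT in 7 of 8 pairs of arrays with the same time and number. The share of all probe sets with such a count was not taken, so the count is a description only. KO against WT at 400 min gave 0.95 (SE 0.55, adjusted p = 0.683), or 1.47 without the array labelled KO 400 min replicate 3 (adjusted p = 0.397). The other probe set, 161365_r_at, went the other way, with KO below WT in 7 of 8 pairs. It read 171, 133 and 124 in unstimulated KO cells, 20.8, 34.3 and 101 after 100 min, and 85.6, 76.4 and 167 after 400 min, against 50.1 and 173 in unstimulated WT cells, 123, 119 and 149 after 100 min, and 121, 161 and 185 after 400 min. All 3 KO arrays at 100 min were below all 3 unstimulated KO arrays, with a difference of -1.73 (SE 0.53, adjusted p = 0.350). The share of all probe sets with such a separation was not counted. The lowest value, 20.8, lay below the floor and entered the test as 22.0. The difference was called in 1 of 17 fits that left out 1 array, that without KO 100 min replicate 3 (-2.36, adjusted p = 0.0409). It lay between -2.36 and -1.26 over the 17. With the replicate 3 term 0 of 17 such fits called it (lowest adjusted p 0.0591). The 2 probe sets thus disagree in direction between KO and WT at 100 and 400 min.

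Serping1 encodes the C1 inhibitor, which blocks the proteases that C1q activates. It read 274, 112 and 229 in KO cells without IL-6, 63.5, 211 and 127 after 100 min, and 164, 319 and 112 after 400 min. In WT cells it read 199.7 and 144 without IL-6, 146, 65.3 and 177 after 100 min, and 135, 173 and 206 after 400 min. The 6 groups overlapped, and the log2 differences between groups ran from -0.68 to 0.60 with no call. At 400 min KO against WT was 0.10 (SE 0.52, 95% interval -1.02 to 1.22), or 0.44 without the array labelled KO 400 min replicate 3 (adjusted p = 0.900).

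**Figure D4:**
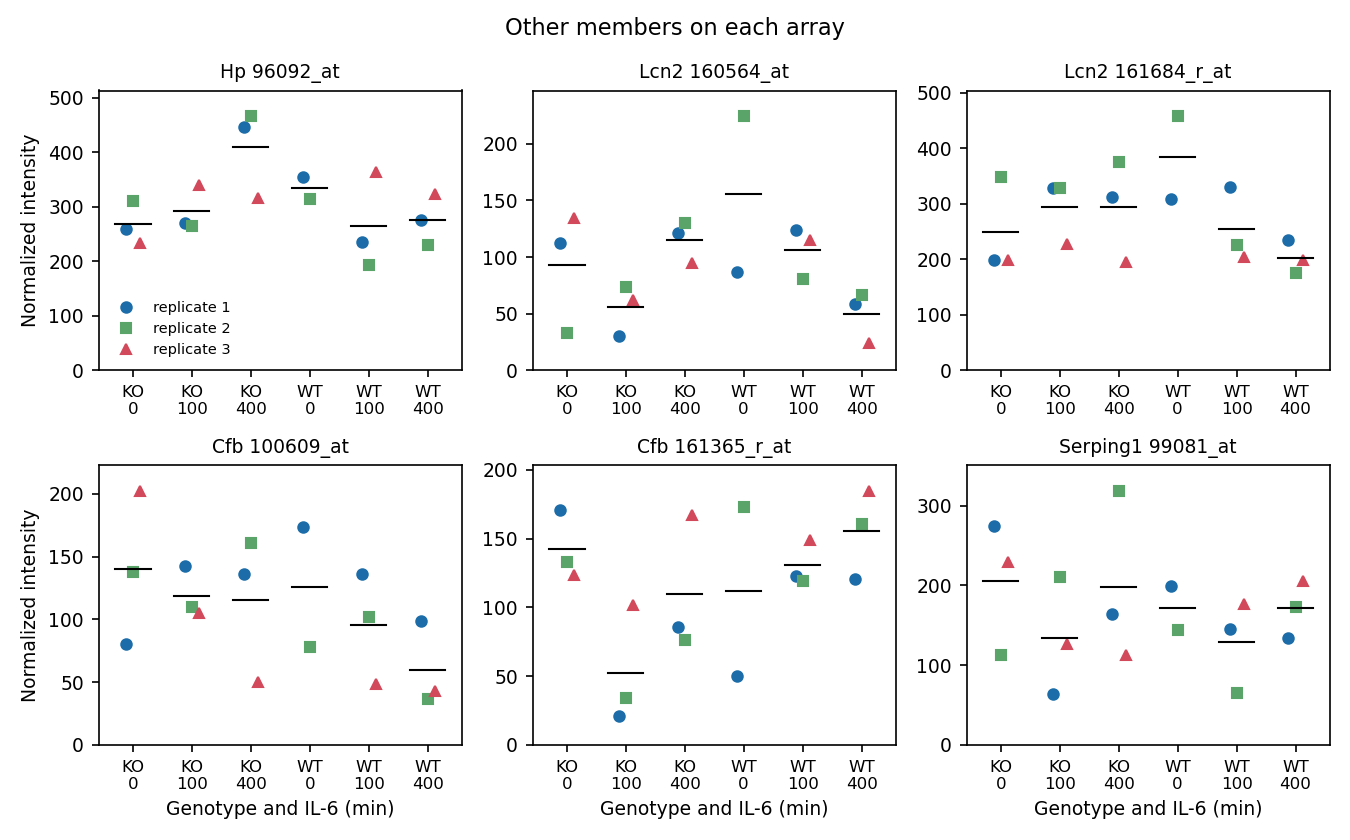
Normalized intensity (linear axis from 0) of Hp, Lcn2, Cfb and Serping1 on each array by genotype and time of IL-6; markers give the replicate number and black lines the group means. Hp is above its unstimulated KO arrays on every KO array at 400 min, and the 2 Cfb probe sets differ in their order of KO and WT. These orders are descriptions and not tests.

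Over the 11 comparisons of groups, without a term for replicate 3, 0 of the 10 member probe sets were called in each. The share of all probe sets called was 0.577% for KO at 100 min and 1.82% for KO at 400 min against unstimulated KO, and 0% for KO at 400 against 100 min. It was 0.0101% for WT at 100 min and 0.0101% for WT at 400 min against unstimulated WT, and 0% for WT at 400 against 100 min. For KO against WT it was 0% without IL-6, 0.0405% at 100 min and 0.365% at 400 min, and for the KO response minus the WT response 0% at both times. At an unadjusted p under 0.05, 1 member probe set passed for KO at 100 min against unstimulated KO (6.17% of all probe sets did), 2 for KO at 400 min against unstimulated KO (12.2%) and 1 for KO at 400 against 100 min (9.03%). In WT cells 0 passed at 100 min (6.12%) and 2 at 400 min (6.26%) against unstimulated cells, and 2 at 400 against 100 min (6.3%). For KO against WT 0 passed without IL-6 (5.99%), 1 at 100 min (4.89%) and 2 at 400 min (8.71%), and for the KO response minus the WT response 1 at 100 min (3.66%) and 3 at 400 min (5.38%). The median log2 difference of the 10 probe sets in KO cells at 400 min against unstimulated KO cells was 0.22, beside -0.04 for all probe sets tested, and 7 of the 10 were above 0.

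**Figure D5:**
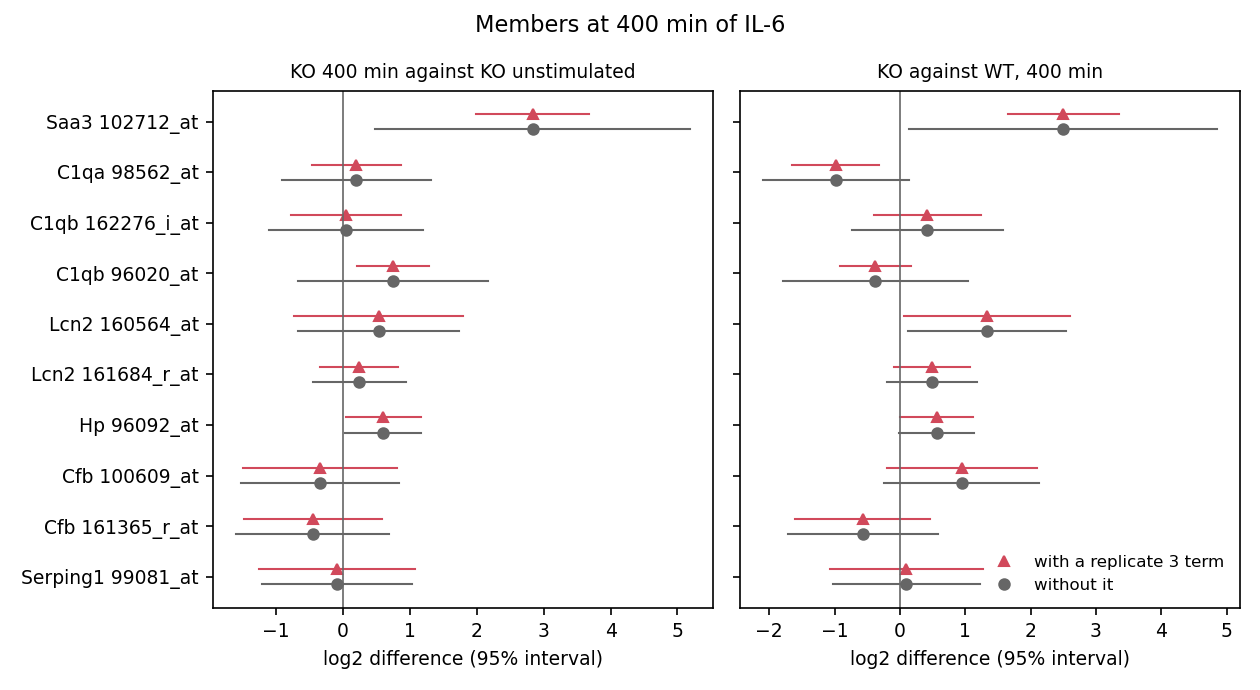
Log2 difference with its 95% interval for the 10 member probe sets, KO 400 min against KO unstimulated on the left and KO against WT at 400 min on the right; triangles are from the fit with a replicate 3 term and circles from the fit without it. For Saa3 the interval is 1.98 to 3.68 with the term and 0.48 to 5.19 without it on the left, and 1.65 to 3.35 and 0.14 to 4.85 on the right.

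Other genes of these pathways were read from 4 lists. Of 34 further acute phase genes, 29 were on the array and 17 were tested, as 18 probe sets. Mt2, a metallothionein that binds zinc, was the 1 probe set called in KO cells: it averaged 3439 ± 603, 8158 ± 568 and 8852 ± 796 in KO cells at 0, 100 and 400 min, and 3884 ± 433, 6795 ± 363 and 4775 ± 314 in WT cells at 0, 100 and 400 min (SD, n = 3, and n = 2 for unstimulated WT). It rose by 1.26 at 100 min (SE 0.19, adjusted p = 0.00585) and by 1.37 at 400 min (SE 0.19, adjusted p = 0.00284) against unstimulated KO cells, and was called in all 17 fits that left out 1 array. With the replicate 3 term Mt2 was also called for KO against WT at 400 min (0.89, adjusted p = 0.0385, 0.861% called). Il1rn, the IL-1 receptor antagonist, had the largest difference of the list at 400 min and was not called (2.69, SE 0.79, adjusted p = 0.132; 3.38 and adjusted p = 0.0647 without the array labelled KO 400 min replicate 3). The list's median at 400 min was 0.02, beside -0.04 for all probe sets. On replicate 3 arrays Alb and Fga of this list, albumin and a fibrinogen chain, were lower (-1.55 and -1.14, adjusted p = 0.0277 and 0.0366).

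Of 22 further complement components, 13 were on the array and 9 were tested, as 11 probe sets, and of 17 complement regulators and receptors, 15 were on the array and 10 were tested, as 13 probe sets. Of both lists 0 probe sets were called in the 11 comparisons of groups. C1ra, a protease of the C1 complex, had the largest difference among components in KO cells at 400 min against unstimulated KO cells, at 1.97 (SE 0.55, adjusted p = 0.107), with 708 ± 322 in KO cells at 400 min and 187 ± 102 in unstimulated KO cells (SD, n = 3 each). The difference was 2.07 (adjusted p = 0.148) without the array labelled KO 400 min replicate 3. Clu, a complement inhibitor, had the largest among regulators and receptors, at 1.11 on 161294_f_at (SE 0.48, adjusted p = 0.367), or 1.21 without that array (adjusted p = 0.419). Its other probe set, 95286_at, averaged 159 ± 48.4 in unstimulated KO cells and 218 ± 43.8 at 400 min (SD, n = 3 each). The medians were 0.63 for components and -0.21 for regulators and receptors, beside -0.04 for all probe sets. On replicate 3 arrays 1 probe set of the components was called, C1qc lower, and 2 of the regulators and receptors, Cd93 lower (-1.37, adjusted p = 0.00178) and Cr1l higher (0.56, adjusted p = 0.0469).

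Of 17 regulators of acute phase genes, 14 were on the array and tested, as 18 probe sets. In KO cells at 100 min 2 were higher and 1 lower than in unstimulated KO cells, and at 400 min 5 were higher and 1 lower, beside 0.577% and 1.82% of all probe sets called. The list's medians were 0.85 and 1.06, beside -0.04 for all probe sets at both times. Irf1, a transcription factor of the interferon response, averaged 681 ± 193, 4449 ± 1934 and 4233 ± 439.7 in KO cells at 0, 100 and 400 min, and 937 ± 33.2, 1214 ± 262 and 971 ± 245 in WT cells at 0, 100 and 400 min (SD, n = 3, and n = 2 for unstimulated WT). It rose in KO cells by 2.63 at 100 min (adjusted p = 0.00326) and by 2.67 at 400 min (adjusted p = 0.00198), and was 2.15 higher in KO than in WT cells at 400 min (adjusted p = 0.0201). Cebpa, which encodes a C/EBP factor of myeloid and liver cells, fell by 1.26 at 100 min (adjusted p = 0.0301, lost in 6 of 17 fits that left out 1 array) and by 1.65 at 400 min (adjusted p = 0.00362). Cebpd, another C/EBP factor and a regulator of acute phase genes, rose by 1.30 at 100 min (adjusted p = 0.0468), and that call was lost in 14 of 17 fits that left out 1 array. Il6st, which encodes gp130, rose by 1.48 on 98349_at at 400 min (adjusted p = 0.0396) and Il1b, an inflammatory cytokine, by 2.81 (adjusted p = 0.0419), and these calls were lost in 10 and 12 of the 17 fits. The other Il6st probe set, 94345_at, was not called at 400 min without the replicate 3 term. It averaged 651 ± 245 in unstimulated KO cells and 1779 ± 669 at 400 min (SD, n = 3 each), and was called with the term (1.45, adjusted p = 0.00404). Stat3, named after its values were seen, rose by 1.37 and 1.28 on its 2 probe sets (adjusted p = 0.0127 and 0.0304), with the calls lost in 3 and 6 of the 17. Without the array labelled KO 400 min replicate 3 the adjusted p at 400 min was 0.00521 for Mt2, 0.00577 for Irf1, 0.00380 for Cebpa, 0.0218 for Il6st 98349_at, 0.116 for Il1b, and 0.0206 and 0.0582 for the 2 Stat3 probe sets. Socs1, a relative of Socs3, was 2.58 higher in KO than in WT cells at 400 min (adjusted p = 0.0336), and without that array its adjusted p was 0.0599 and that of Irf1 0.0323. The calls of Socs1 and Irf1 between KO and WT at 400 min were lost in 9 and 4 of the 17 fits. With the replicate 3 term, 16 of 9871 probe sets were called for KO against WT at 100 min. Irf1 (1.78, adjusted p = 0.00999) and Socs1 (2.43, adjusted p = 0.0427) were among them. At 400 min Il6st 98349_at was then called too (1.08, adjusted p = 0.0382, 0.861% called). The Irf1 response difference at 400 min was 2.43 (adjusted p = 0.0415, 0.0507% called). It rests on 1 shift taken as common to all groups. On replicate 3 arrays Irf1 was lower (-0.64, adjusted p = 0.0315), as were Il6st 94345_at (-0.96, adjusted p = 0.00476) and 98349_at (-0.62, adjusted p = 0.0248).

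The named probe sets of other genes whose log2 levels followed Saa3 most closely over the 17 arrays were Lman1 (Pearson r = 0.841), Cltb (0.830) and Vamp4 (0.824). For C1qb 96020_at they were C1qc (0.970), Ly86 (0.965) and Lgmn (0.949), and for C1qa C1qc (0.869), Ctsl (0.843) and Slc39a7 (0.839). For C1qb 162276_i_at they were Sh3bp1 (0.933), Npepps (0.919) and Cfl1 (0.912). These values describe arrays that share groups and replicate numbers, and the shift of replicate 3 is part of them.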

How the data were processed

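Gene expression was compared on 17 arrays of cultured mouse macrophages. The authors deposited linear intensities for 12488 probe sets, with 1 value on each array. Neither the labels nor the table name the software or the background correction behind them; the trimmed mean of each array lay close to 500.4, which shows a common scaling. The platform annotation gave 1 symbol to 10855 probe sets, several to 396 and none to 1237, and 66 control probe sets were left out.

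Values were quantile normalized, floored at the 10th percentile of all values (22.0), log2 transformed and tested with limma 3.58.1 in R 4.3.3: 1 mean per group over all arrays, eBayes, two-sided, with Benjamini-Hochberg adjustment within each comparison. A second fit added a term for replicate 3. Named genes were all members, Socs3, of each pathway list and comparison up to 4 called probe sets with the largest differences or else the 1 with the largest, and the 3 most like Saa3 and each called member. The members, the lists and the check of replicate 3 for Saa3 were chosen with earlier results of these data known. The tables hold no detection calls, and the number of arrays limits the precision. Alternatives were other scaling, floors and filters, a replicate block, fits of only the groups compared, and leaving out arrays.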

Additional observations from a re-analysis of the deposited data

Results flagged for a closer look

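In 3 cases every KO array at 1 time of IL-6 moved one way from the mean of unstimulated KO cells. Every WT array at that time moved the other way from the mean of unstimulated WT cells. The test of the difference between the responses did not pass in any of them. Only members were read in this way. The share of all probe sets with such a pattern was not counted, so the 3 cases are descriptions only. Lcn2 160564_at at 400 min moved by 0.26 to 0.72 on KO arrays and by -2.54 to -1.07 on WT arrays on the log2 scale, a difference of 2.15 (SE 0.84, adjusted p = 0.842), or 2.29 without the array labelled KO 400 min replicate 3 (adjusted p = 0.710). It is the probe set that lay above the filter level on 3 of 17 arrays, and its unstimulated WT arrays read 86.8 and 225.

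Cfb 161365_r_at at 100 min moved by -2.68 to -0.48 on KO arrays and by 0.36 to 0.68 on WT arrays, a difference of -2.21 (SE 0.80, adjusted p = 1.00). Hp at 400 min moved by 0.25 to 0.81 on KO arrays and by -0.54 to -0.04 on WT arrays, a difference of 0.89 (SE 0.40, adjusted p = 0.899), or 1.06 without the array labelled KO 400 min replicate 3 (adjusted p = 0.694). Each unstimulated WT mean rests on 2 arrays, and the Cfb value of -2.68 comes from an array at the floor.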

How the results depend on the processing

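The count of called member probe sets was 0 in the 11 comparisons of groups and moved only through the treatment of replicate 3 and through single arrays. It became 1, Saa3, for KO at 400 min against unstimulated KO with the replicate 3 term (also in each of the 17 such fits that left out 1 array) and on replicates 1 and 2 only, and 1, Saa3, for KO against WT at 400 min with the term (15 of 17 such fits; highest adjusted p 0.0532, lost without KO 400 min replicate 1 or WT 400 min replicate 3). With a replicate block both were called too, at 2.83 (adjusted p = 0.00422) and 2.50 (adjusted p = 0.0178), and, without the array labelled KO 400 min replicate 3, at adjusted p = 0.0173 and 0.0480. As a hint of pairing, deviations from the group means correlated at 0.10 to 0.24 between replicate 3 arrays (10 pairs), but at -0.02 to 0.11 between replicate 1 arrays and -0.01 to 0.09 between replicate 2 arrays (15 pairs each), so the numbers were not taken to pair the samples throughout. The count was 1, Saa3, for KO at 400 against 100 min in 2 of the 17 fits with the term that left out 1 array and for the difference between the 400 min responses in 1, and 1, Cfb 161365_r_at, for KO at 100 min against unstimulated KO without KO 100 min replicate 3. In fits without the term that left out 1 array, member counts were 0 to 1 for KO at 100 min against unstimulated KO and 3 to 4 for replicate 3 against replicates 1 and 2. Median scaling, other floors, no filter, the deposited values and fits of only the groups compared left Saa3 uncalled in every comparison of groups. The 7 pathway probe sets called at 400 min in KO cells were 4 with median scaling, 11 on replicates 1 and 2, 2 in the fit of only the groups compared, 3 to 9 without 1 array, and 7 to 11 with the term and without 1 array. C1qb 162276_i_at lost its replicate 3 call with median scaling (adjusted p = 0.0527), with no filter (adjusted p = 0.0566) and in 13 of 17 fits that left out 1 array. No called value changed direction. Among values not called in either fit, 67 changes of sign occurred, including Saa3 between KO and WT without IL-6, at 0.49 without and -0.35 with the term. The causes were not tested.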
